A study of Mus musculus with 24 samples.

Results

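E14TG2a cells, a mouse embryonic stem cell line, were labelled with 5-ethynyl uridine (EU), a uridine analogue that cells build into RNA while they transcribe it, and the labelled RNA was captured and sequenced. The comparison described here is between Alkbh5 KO cells and WT cells over the late part of the labelling course, from 20 to 60 min. It takes the gain of each gene or repeat in the KO from 20 to 60 min and subtracts the gain in the WT over the same interval, with the 40 min libraries as a middle point. The members are 12 of the 24 libraries of the series, 2 for each genotype at 20, 40 and 60 min. The libraries labelled for 10 min drop out of this difference, and the third line, labelled Alkbh5 del-cIDR, was not part of it. All groups shared the growth medium, which held serum, LIF, the MEK inhibitor PD0325901 at 1 µM and the GSK3 inhibitor CHIR99021 at 3 µM, and all were given 1 mM EU. RNA from EU-labelled Drosophila cells, added in equal amount to every sample before capture, served as the spike-in. The labels name no second clone for either genotype, so genotype and clone cannot be told apart. They also do not say whether the 2 libraries of a group came from separate cultures, and the spread behind each p-value may be technical.

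ALKBH5 is a nuclear enzyme that removes the methyl group from N6-methyladenosine (m6A), the most common internal mark of messenger RNA, which a methyltransferase complex around METTL3 and METTL14 adds during transcription and which YTH-domain proteins read. The mark is known for speeding the decay of many messages in embryonic stem cells. In a labelling course of this kind, the signal of a stable RNA keeps growing as long as EU is present, whereas that of a short-lived RNA levels off once decay keeps pace with synthesis, so a late gain depends on synthesis and on decay together.

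In each library, a gene's level is its number of reads per 11714 spike-in reads. Gene reads numbered 5585846 to 22162858 per library, repeat reads 6412541 to 21135738, and spike-in reads 6037 to 18046. The lowest of each belonged to KO 20 min library B. The libraries of a group are called A (more spike-in reads) and B, because the deposited columns pool them and do not say which is replicate 1. Defining markers of embryonic stem cells summed to levels of 27452 to 79749 in WT and 32210 to 86642 in KO libraries. The summed level of 8 neural markers ran from 1404 to 4527 in WT and from 2888 to 8546 in KO, while endoderm and mesoderm markers stayed at 121 to 258 and 139 to 350, trophoblast markers at 141 to 451 and 89.7 to 325, and fibroblast markers at 31.2 to 66.8 and 32.9 to 81.5. No marker was at 0 in all 12 libraries. In these bulk samples, fewer cells of a type and less RNA per cell cannot be told apart.

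Total labelled RNA grew in both genotypes between 20 and 60 min, and the gains differed by less than the spread between libraries. Reads assigned to genes came to 711 ± 42.5 (SD, n = 2) per spike-in read in WT at 20 min, 1605 ± 477 at 40 min and 1825 ± 366 at 60 min. In the KO they came to 863 ± 87.9, 1485 ± 135 and 2171 ± 124 (SD, n = 2). The log2 gain from 20 to 60 min was 1.35 in WT and 1.33 in KO. Its difference, KO minus WT, was -0.01 with p = 0.944 by a two-sided exact permutation test of genotype within each time (36 arrangements, smallest possible p 0.0556, so this design cannot pass 0.05). Reads on repeats gave 770 ± 14.0, 1583 ± 476 and 1690 ± 347 per spike-in read in WT and 952 ± 157, 1487 ± 137 and 2038 ± 164 in KO (SD, n = 2). Here too the gains were 1.12 and 1.11, and their difference was -0.01 (exact permutation p = 0.944). Leaving out 1 library moved the difference to between -0.22 and 0.19 for genes and between -0.22 and 0.20 for repeats; the lowest value came without WT 60 min library A and the highest without WT 60 min library B. The plot of labelled RNA per spike-in read shows this spread.

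**Figure D1:**
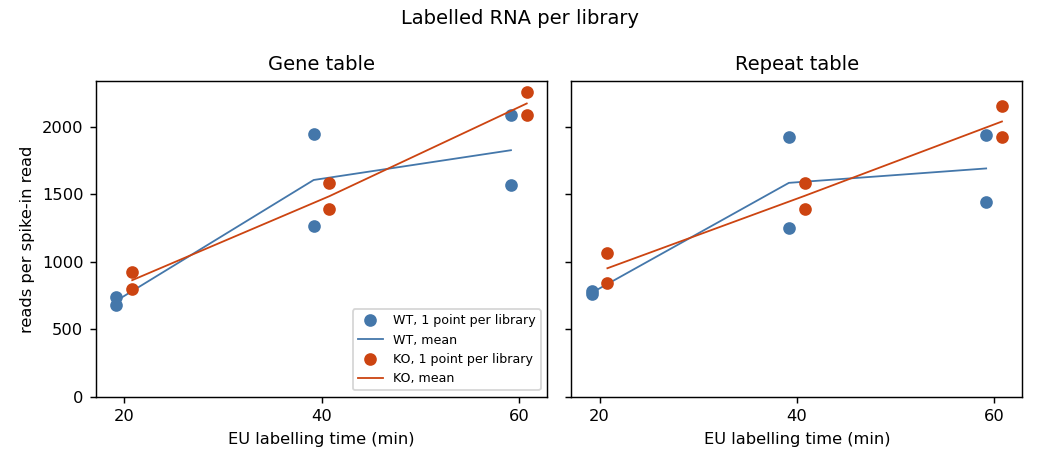
Reads per spike-in read (vertical axis, from 0) against EU labelling time in minutes for the gene table and the repeat table; each point is 1 library of WT or KO and the lines join group means. At 60 min the KO gene mean of 2171 lies above the WT mean of 1825, with the WT libraries far apart at 40 and 60 min.

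To compare single genes, each library was centred on its median gene, so that a value says whether a gene gained more or less than the typical gene of its genotype. The late difference of a gene, on the log2(level + 1) scale, was tested with limma over 22939 genes, and a gene is said to be called when its Benjamini-Hochberg adjusted p is under 0.05. No gene was called: 0 of 22939 (0%), with a smallest adjusted p of 0.153. At an unadjusted limma p under 0.05 there were 3019 genes (13.2%), of which 677 (2.95%) gained more in the KO and 2342 (10.2%) gained less. The same test with voom weights on the whole reads also called 0 genes, with 2784 under an unadjusted p of 0.05, and a slope through 20, 40 and 60 min called 0, with 3415. The 2 steps of the interval gave 0 calls each, with 3200 genes under an unadjusted p of 0.05 for 20 to 40 min and 496 for 40 to 60 min. The count changed with 2 of the 20 min libraries: without WT 20 min library A, 308 genes were called (11 higher, 297 lower in KO), and without KO 20 min library A, 76 were (50 higher, 26 lower), whereas leaving out any of the other 10 libraries gave 0.

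Genes of higher level had lower late differences. In 6 bands of mean level, of 3822 to 3824 genes each, the median late difference was 0.10 in the lowest band, then 0.03, 0.00, -0.04 and -0.10, and it was -0.18 in the highest, while the median standard error shrank from 0.79 to 0.12. In the highest band (mean level from 1123 upwards), 1255 of 3823 genes (32.8%) had a lower late gain in the KO at an unadjusted p under 0.05 and 22 (0.575%) a higher one. Some genes of this band had no measured spread in WT at 60 min, because the split between those 2 libraries was unclear. Rex2, Mat2a, Tfrc, Lnpep, Ddx3x, Zfp978 and Alkbh5 were among them, and Zfp640 was not. Their number in the band was not counted, which limits the 32.8% wherever it is used below. At 20 min the order was the opposite: the median KO minus WT was -0.06 in the lowest band and 0.11 in the highest, and at 60 min it was 0.03 and -0.08. Quantile normalization, which forces the same distribution on every library, set the median of all genes to 0.00 and left 2198 genes under an unadjusted p of 0.05, none called. On the deposited spike-in scale with no centring the median gene moved from -0.07 to 0.08. So the sign of a small late difference in an abundant gene depended on the scale, and values are given below relative to the median gene unless another scale is named.

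**Figure D2:**
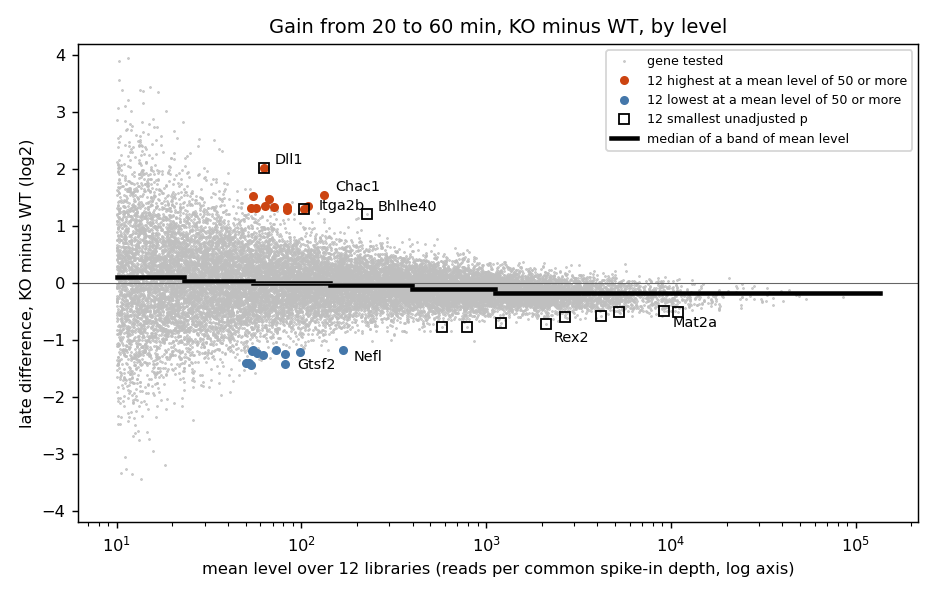
Late difference of each gene, the KO gain minus the WT gain in log2 units, against its mean level over 12 libraries (log axis). Grey dots are genes tested, and the black line is the median of each of 6 level bands. Coloured dots are the 12 highest and 12 lowest late differences and squares the 12 smallest unadjusted p, both among named genes at a mean level of 50 or more. The cloud narrows to the right, and the line goes from 0.10 in the lowest band to -0.18 in the highest.

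Gene span and class showed less of a trend. By quartile of annotated span (GENCODE M21, GRCm38) the median late difference was -0.08, -0.04, -0.07 and -0.11 from the shortest to the longest genes. It was -0.07 for 14775 protein-coding genes, 0.02 for 953 lincRNAs, -0.14 for 1905 processed pseudogenes and -0.18 for 186 snoRNAs. Reads of a pseudogene or of another near-identical copy may belong to its parent gene, and the counting rule is not given in the sources used here.

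KO and WT differed at each single time. At 20 min 3622 genes (15.8%) were called, 2342 higher in KO (10.2%) and 1280 lower (5.58%). At 40 min 2935 (12.8%) were called, 1215 higher (5.3%) and 1720 lower (7.5%), and at 60 min 3010 (13.1%), 1461 higher (6.37%) and 1549 lower (6.75%). Of the calls at 60 min, many were there at 20 min: 1645 genes were called at both times, which is 45.4% of the calls at 20 min and 54.7% of those at 60 min, and 1641 of them had the same sign. The calls at 20 and 60 min come from separate libraries, but they share the spread of a gene, which was pooled over all 6 groups. The calls at the 3 times are therefore not independent. There were 1331 genes called at all 3 times, 742 higher and 588 lower each time and 1 with mixed signs, and their median absolute difference was 0.66 at 20 min and 0.65 at 60 min. Another 1365 genes were called at 60 min and not at 20 min. On the spike-in scale, which carries the spread in total signal, 763 genes were called at 20 min, 316 at 40 min and 932 at 60 min (793 higher, 139 lower), with the median gene at 0.23, -0.06 and 0.30. Genes of chromosomes 6 and 8 stood apart at every single time: their median KO minus WT ran to 0.47, 0.36 and 0.37 for chromosome 6 over the 3 times and to 0.37, 0.28 and 0.32 for chromosome 8. In the late difference they did not, at -0.08 and -0.04. Of the calls, 1472 higher with 1236 lower, 624 with 1688 and 771 with 1516 were among the 20628 genes outside these chromosomes, so the higher calls lost more members than the lower ones. A gene on them is marked as such below.

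Alkbh5 itself (ENSMUSG00000042650, chromosome 11) was read at levels of 921.7 and 803.1 in the WT libraries at 20 min, 2057 and 3182 at 40 min and a mean of 3210 at 60 min, and at 661.3 and 659.7, 1465 and 1774, and 2374 and 2219 in the KO. KO libraries lay below WT at each time, by -0.55 ± 0.09 at 20 min (limma adjusted p = 0.000522), -0.65 at 40 min (0.000145) and -0.79 at 60 min (2.49e-05). These are reads over the whole gene, labelled RNA from a gene that is still transcribed, and they do not check the deletion. Its late difference was -0.24 ± 0.13 (unadjusted p = 0.0814). On the spike-in scale the differences at the 3 times were not called (adjusted p = 0.501, 0.292 and 0.358).

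Among 12016 named genes with a mean level of 50 or more, the 12 highest late differences belonged to genes of mean level 53.6 to 133, and as none was called they are given as values. These genes were picked by the late difference, which contains the 20 and 60 min libraries, so their differences at those times are a description of the same values. Dll1, a ligand of Notch receptors (chromosome 17), led with 2.02 ± 0.41 (SE), an interval from 1.15 to 2.89. At 20, 40 and 60 min in turn, its levels in WT were 26.0 and 24.6, 28.2 and 66.8, and 33.1 and 30.9, and in KO 23.96 and 29.1, 76.8 and 100.1, and 138.5 and 171.8. The genotypes overlapped at 20 min and were apart at 40 and 60 min. KO minus WT was -0.11 at 20 min (adjusted p = 0.844), 1.01 at 40 min (0.0303) and 1.91 at 60 min (0.000277), the last of which stayed called without any single library (adjusted p at most 0.0114) and on the spike-in scale (2.47e-05). The 40 min call was lost without WT 40 min library A (0.287), KO 40 min library A (0.102) or KO 40 min library B (0.158).

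Chac1, an enzyme that breaks down glutathione and a target of the stress factor ATF4, had the next highest late difference, 1.55 ± 0.35. Over the 3 times its WT levels were 92.8 and 52.2, 84.6 and 113.3, and 67.1 and 77.9, with no order by labelling time. In KO they were 96.5 and 77.6, 145.9 and 196.9, and 282.9 and 307.2. At 20 min the genotypes overlapped (0.14, adjusted p = 0.765), and at 60 min KO was higher by 1.69 ± 0.25 (0.000169; at most 0.00739 without any single library).

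Bhlhe40, a basic helix-loop-helix repressor on chromosome 6, had the smallest unadjusted p of the 12016 named genes at a mean level of 50 or more. That limma p was 2.09e-05, with a late difference of 1.204 ± 0.21. It is named here after its values were seen. WT levels were 77.9 and 79.9, 104.0 and 181.2, and 92.7 and 121.4, and KO levels 153.3 and 161.1, 317.1 and 349.8, and 564.6 and 519.8. KO was above WT in every library at each time, and the distance grew from 0.81 at 20 min to 1.28 at 40 min and 2.02 at 60 min (adjusted p = 0.00104, 1.78e-05 and 1.64e-07). The call at each time held without any single library. The growth itself, as a late difference, had an adjusted p of 0.153.

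Of the 12 highest, 8 were called lower in KO at 20 min, 3 higher at 60 min and 2 higher at 40 min. Their levels at 20 min rest on few reads. In KO 20 min library B the 12 genes had from 3 reads (Wdr64) to 40 (Chac1), with 14 for Bdnf and 26 for Cdo1. Bdnf, a neurotrophin, had levels of 51.9 and 55.3 in WT against 26.0 and 27.2 in KO at 20 min (-1.16, adjusted p = 0.00141), and 87.9 and 115.7 against 134.9 and 141.2 at 60 min (0.12, adjusted p = 0.797). Cdo1, which oxidises cysteine, went from 84.4 and 80.9 in WT against 43.8 and 50.4 in KO at 20 min (-0.97, adjusted p = 0.00169) to 95.5 and 111.1 against 171.9 and 154.3 at 60 min (0.33, 0.302), with a late difference of 1.30 ± 0.27. Itga2b, an integrin subunit of platelets, was the third gene called higher at 60 min (0.75, adjusted p = 0.0306). That call was lost without any one of the 4 libraries at 60 min, with adjusted p of up to 0.265. The remaining genes were Sh2d2a (1.53), Scand1 (1.47), Nipal4 (1.35), Zfp385c (1.34), Vstm5 (1.33), Tspan18 (1.31) and Wdr64 (1.31). Wdr64 had a level of 5.82 in KO 20 min library B against 27.4 in library A, and its late difference was 0.17 without library B. Leaving out that library also took Scand1 to 0.71 and Tspan18 to 0.61.

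Among the 12 lowest late differences there were 8 genes called higher in KO at 20 min and 1, Nefl, called lower at 60 min. Here too the reads at 20 min were few. In WT 20 min library B the 12 genes had from 2 reads (Cabs1) to 61 (Nefl), with 11 for Gtsf2 and 6 for Ifit2. Gtsf2, of a family of small zinc-finger proteins of the germ line, had levels of 7.79 and 11.3 in WT and 28.1 and 48.5 in KO at 20 min (1.70, adjusted p = 0.000359). By 60 min it was at 107.8 and 123.7 in WT and 171.9 and 180.6 in KO (0.28, adjusted p = 0.601), and its late difference was -1.42 ± 0.39. Ifit2, an interferon-induced gene, went from 11.7 and 6.15 against 36.3 and 27.2 at 20 min (1.59, adjusted p = 0.00245) to 52.0 and 68.7 against 93.1 and 78.6 at 60 min (0.18, 0.793), a late difference of -1.41 ± 0.46. For both the early difference was called and the late one was not. Nefl, the light neurofilament subunit, was at 233.5 and 310.4 in WT and 149.2 and 206.8 in KO at 60 min (-0.94, adjusted p = 0.0175), a call lost without WT 60 min library A (0.111), WT 60 min library B (0.0943) or KO 60 min library A (0.221). Others were Slc47a1 (-1.44), Soga3 (-1.41), Hdx (-1.27), Gstt2 (-1.22), Sval2 (-1.21, chromosome 6), Pdlim3 (-1.19, chromosome 8), Abhd15 (-1.17) and Cabs1 (-1.17), at mean levels of 50.3 to 169 over all 12. Cabs1 reversed to 0.06 when WT 20 min library B, with a level of 2.05, was left out. Without the same library the late difference was -0.73 for Slc47a1, -0.68 for Gstt2, -0.51 for Sval2, -0.65 for Abhd15 and -0.76 for Nefl.

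**Figure D3:**
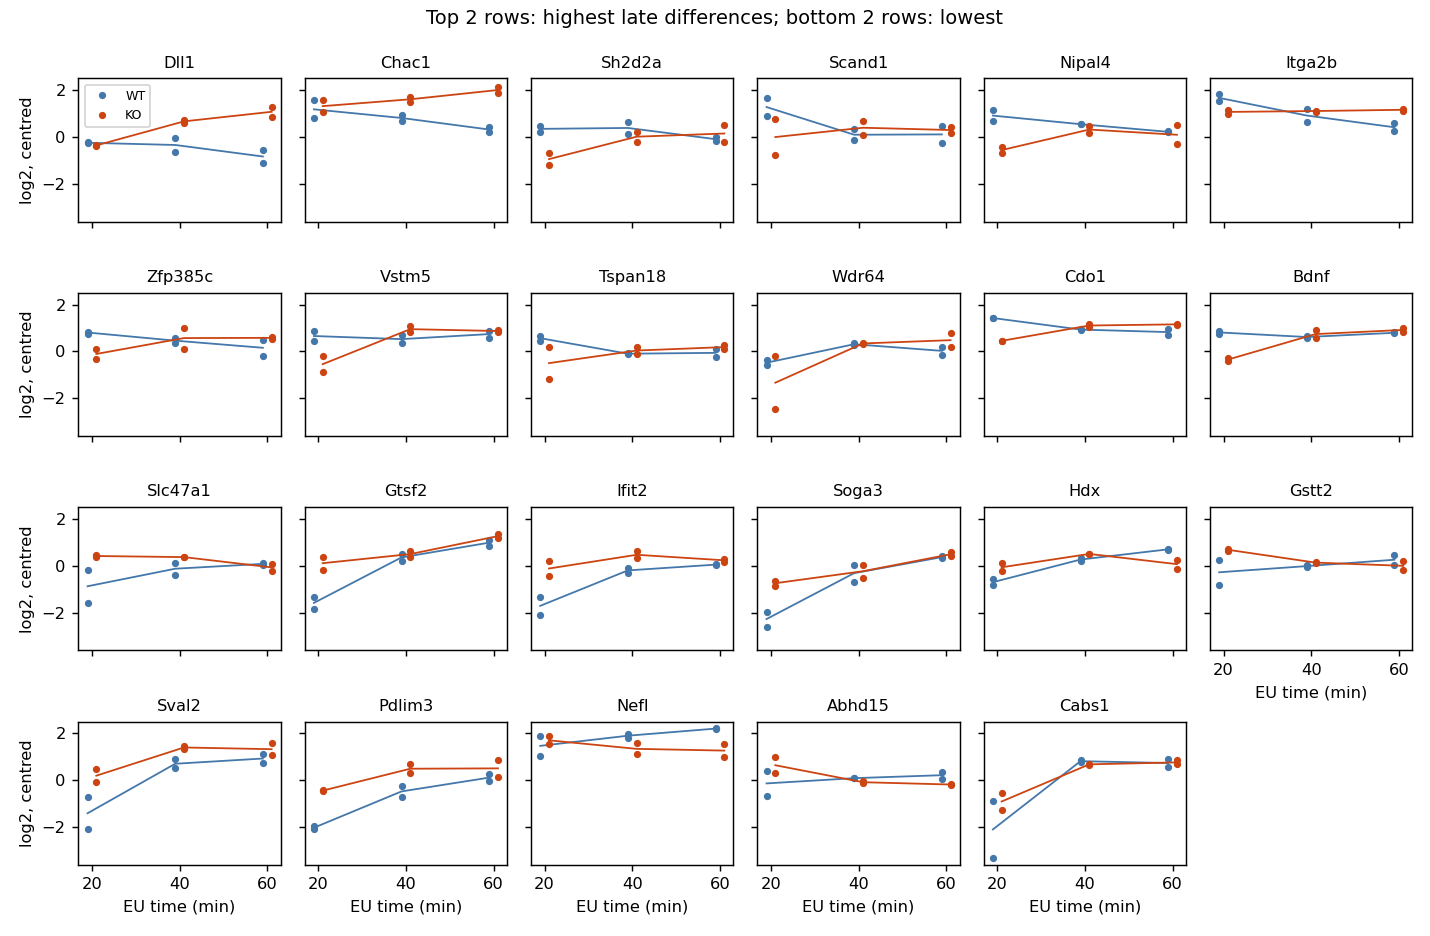
Centred log2 level (vertical axis) against EU time in minutes for the 12 genes with the highest late differences (upper 2 rows) and 11 of the 12 with the lowest (lower 2 rows); each dot is 1 library of WT or KO and lines join group means. Dll1 and Chac1 start together at 20 min and are apart at 60 min, Bdnf and Cdo1 start lower in KO, and Gtsf2 starts higher in KO.

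The 12 smallest unadjusted p for the late difference were taken among the same 12016 named genes, after their values were seen. Of these 12 genes, 9 had a lower late gain in the KO. Rex2, of a zinc-finger gene cluster on chromosome 4, had levels of 821.1 and 766.2 in WT and 766.1 and 919.7 in KO at 20 min. At 40 min it was at 2136 and 2912 in WT against 1314 and 1693 in KO, and at 60 min at a mean of 4089 against 3056 and 2765. KO minus WT was -0.09 at 20 min, -0.73 at 40 min (adjusted p = 3.83e-05) and -0.80 at 60 min (1.4e-05), and the late difference was -0.71 ± 0.12. Lnpep, an aminopeptidase, and D16Ertd472e had the same course, with -0.12, -0.69 and -0.64 for the first and -0.16, -0.93 and -0.93 for the second. Both were called at 40 and 60 min and not at 20 min. Neither the 40 nor the 60 min difference of Rex2 was called on the spike-in scale (adjusted p = 0.181 and 0.344).

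The other genes with a lower late gain differed in their course. Mat2a, which makes the methyl donor S-adenosylmethionine (chromosome 6), was higher by 0.63 ± 0.07 at 20 min (adjusted p = 1.05e-05) and by 0.17 and 0.14 at 40 and 60 min (0.121 and 0.209), with a late difference of -0.49 ± 0.09. Tfrc, the transferrin receptor, and Ddx3x, an RNA helicase, were called higher at 20 min (0.34 and 0.31) and at 60 min stood at -0.24 and -0.20 (adjusted p = 0.0547 and 0.0819). Rps6ka3, the kinase RSK2 downstream of ERK, was at 0.30 at 20 min (adjusted p = 0.0587) and was called lower at 60 min (-0.48, 0.00497). Zfp640 was called higher at 20 min (0.35) and lower at 60 min (-0.35, adjusted p = 0.0204), and Zfp978 stood at -0.07 at 20 min and was called lower at 40 and 60 min (-0.60 and -0.67).

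Among 31 gene lists, which were chosen with earlier results of these data known, ATF4 targets held 16 calls, all higher in KO, over 29 members at 60 min. ATF4 is the transcription factor that turns on amino acid transporters, aminoacyl-tRNA synthetases and stress genes when cells lack amino acids or when proteins misfold. Of 29 members tested, 10 were called higher in KO at 20 min, 12 at 40 min and 16 at 60 min, with 1, 2 and 0 called lower, against 10.2%, 5.3% and 6.37% of all genes called higher. Without genes of chromosomes 6 and 8 the counts were 4, 6 and 10 of 22. Leaving out single libraries gave 11 to 16 higher at 60 min. Spike-in scaling gave 3, 0 and 12, with 521, 91 and 793 of all genes. No member had a called late difference. Above 0 were 22 of the 29, against 9627 of all 22939 genes tested. The median late difference was 0.13, and 0.29 and 0.24 on the spike-in and quantile scales, against -0.07, 0.08 and 0.00 for all genes. Without KO 20 min library B it came to 0.01, without WT 20 min library A to 0.02 and without WT 60 min library B to 0.05. It came to 0.22 without WT 20 min library B and to 0.21 without KO 20 min library A.

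The member with the largest late difference was Chac1, described above, and 4 others had an unadjusted p under 0.05, all higher in KO. Trib3, a pseudokinase that feeds back on ATF4, had levels of 96.1 and 109.6 in WT and 132.1 and 147.5 in KO at 20 min, and 207.1 and 262.3 against 531.2 and 578.1 at 60 min. The genotypes were apart at both times, by 0.27 (adjusted p = 0.259) and 0.92 (0.000496), and the late difference was 0.65 ± 0.21. Vldlr, a lipoprotein receptor, went from 54.5 and 54.3 against 108.2 and 108.7 to 111.6 and 186.7 against 533.5 and 457.2, or 0.81 and 1.44 (adjusted p = 0.00398 and 2.96e-05; late 0.63 ± 0.25). Pck2, the mitochondrial enzyme that makes phosphoenolpyruvate, was at 542.7 and 483.5 against 560.7 and 609.3 at 20 min and at 521.9 and 710.1 against 1058 and 1136 at 60 min. Its difference was 0.02 and then 0.52 (adjusted p = 0.939 and 0.00227; late 0.50 ± 0.15), and the 60 min call was lost without KO 60 min library B (0.0569). Ddit3, the stress factor CHOP, was at 0.25 and 0.73 (adjusted p = 0.179 and 0.00051; late 0.48 ± 0.17).

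Among other members, Aars, Slc7a1 and Atf4 had late differences near 0. Aars, the alanyl-tRNA synthetase (chromosome 8), was called higher at each time, by 0.58, 0.55 and 0.62, with a late difference of 0.04. Slc7a1, a transporter of basic amino acids, and Atf4 itself were not called at any time, and their late differences were -0.07 and -0.03. Herpud1, which serves the degradation of misfolded proteins (chromosome 8), was higher by 0.79, 0.80 and 1.197, each called (late 0.41 ± 0.22).

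The promoters of these genes were searched for the letters TGATGNAA, a core shared by C/EBP-ATF response elements, or TTNCATCA on the other strand, in RefSeq windows of GRCm38.p6 from 250 bases before to 50 after each start. A promoter was at hand for 25 of the 29 ATF4 targets and 9 held a match, against 3.97% of all 32851 promoters (4.51% of 27025 genes). Of the 16 members called higher at 60 min, 8 held one, and the other match was in Asns, not called higher at 60 min. How many of the 16 had a promoter at hand is not given. As the list is made of ATF4 targets, its share of matches over that of all promoters does not bear on the KO calls. The motif was chosen after the values were seen, and a match is a description of letters, not a site. Shown are the 4 members with an unadjusted late p under 0.05 that hold a match, with the match in capitals: Chac1 at chr2:119350992-119351291 (plus strand), Trib3 at chr2:152344011-152344310 (minus), Vldlr at chr19:27216770-27217069 (plus) and Pck2 at chr14:55540016-55540315 (plus).
Chac1: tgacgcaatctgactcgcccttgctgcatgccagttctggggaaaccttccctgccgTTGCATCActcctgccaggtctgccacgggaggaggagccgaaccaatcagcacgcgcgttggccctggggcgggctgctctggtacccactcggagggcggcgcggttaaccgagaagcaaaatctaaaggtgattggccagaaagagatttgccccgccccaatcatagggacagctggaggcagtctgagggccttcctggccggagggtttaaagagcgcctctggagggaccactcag
Trib3: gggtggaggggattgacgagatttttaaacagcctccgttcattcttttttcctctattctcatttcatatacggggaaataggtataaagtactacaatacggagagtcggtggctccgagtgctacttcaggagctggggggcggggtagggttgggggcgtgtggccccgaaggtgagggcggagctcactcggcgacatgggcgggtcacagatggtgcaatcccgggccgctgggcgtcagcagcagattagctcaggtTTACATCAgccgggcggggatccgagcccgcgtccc
Vldlr: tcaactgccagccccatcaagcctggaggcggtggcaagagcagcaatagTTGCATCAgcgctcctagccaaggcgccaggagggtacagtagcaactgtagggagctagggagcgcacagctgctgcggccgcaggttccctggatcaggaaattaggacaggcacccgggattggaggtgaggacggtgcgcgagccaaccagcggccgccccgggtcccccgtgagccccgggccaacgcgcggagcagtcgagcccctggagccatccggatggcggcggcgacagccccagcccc
Pck2: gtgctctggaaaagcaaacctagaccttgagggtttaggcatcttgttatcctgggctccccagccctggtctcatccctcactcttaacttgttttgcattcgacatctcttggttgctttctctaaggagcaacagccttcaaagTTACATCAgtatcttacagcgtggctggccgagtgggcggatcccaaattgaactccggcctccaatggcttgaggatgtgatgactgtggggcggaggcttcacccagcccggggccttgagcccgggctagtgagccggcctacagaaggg
Each of the 4 carries 1 match, which begins 193 bases before the start in Chac1, 200 before it in Vldlr, 103 before it in Pck2 and 14 after it in Trib3.

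Immediate early genes, which growth and stress signals switch on without new protein synthesis, had a median late difference of 0.21 over 32 members (0.36 and 0.18 on the spike-in and quantile scales), 4 higher and 1 lower at an unadjusted p under 0.05 (against 2.95% and 10.2% of all genes). The median was 0.07 without KO 20 min library B, 0.05 without KO 60 min library B, and 0.10 without WT 20 min library A or WT 60 min library B. Calls over the 3 times were 5 higher with 4 lower (15.6% and 12.5%, against 10.2% and 5.58% of all genes), 8 with 3 (25% and 9.38%, against 5.3% and 7.5%), and 6 with 2 (18.8% and 6.25%, against 6.37% and 6.75%). Spike-in scaling gave 3 with 1, 3 with 1, and 6 with 0, and the higher count fell to 3 at 20 min without WT 20 min library B and to 5 at 40 min without WT 40 min library B. Atf3 was at 75.3 and 56.3 in WT and 88.3 and 95.1 in KO at 20 min, and at 111.6 and 114.5 against 331.8 and 327.6 at 60 min. Its difference went from 0.31 (adjusted p = 0.337) to 1.21 (0.00063), and the late difference was 0.90 ± 0.29. Jun and Fos, the partners of the AP-1 dimer, had late differences of 0.79 ± 0.21 and 0.87 ± 0.31. Their 60 min differences of 0.46 and 0.39 were not called (adjusted p = 0.0509 and 0.295). Id1, a BMP-responsive inhibitor of basic helix-loop-helix factors, was called higher by 1.66, 2.03 and 1.97, a difference that was in place at 20 min. The 3 members of highest level were Mcl1, an anti-apoptotic protein, which was called lower at 40 and 60 min (-0.33 and -0.39; late -0.25), and Mycn and Btg2, which were called at no time (late -0.12 and 0.22).

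Of 24 components of the m6A pathway, 21 had late differences below 0, against 13312 of all 22939 genes tested. The list median, with 20 members in the highest level band, was -0.25, and the median of that band was -0.18. At an unadjusted p under 0.05, 9 members were lower and 0 higher. The share lower was 10.2% over all genes and 32.8% over that band. The list median was -0.10 on the spike-in scale and -0.05 after quantile normalization. Calls over the 3 times were 5 higher with 2 lower (20.8% and 8.33%, against 10.2% and 5.58% of all genes), 3 with 5 (12.5% and 20.8%, against 5.3% and 7.5%), and 2 with 5 (8.33% and 20.8%, against 6.37% and 6.75%). They were 1 with 0, 0 with 0, and 2 with 0 on the spike-in scale. Without WT 60 min library A the lower count at 60 min was 1, and without KO 40 min library B that at 40 min was 2. Off chromosomes 6 and 8 the higher calls were 2, 0 and 0. Ythdc1, the nuclear reader of m6A, was at 0.17 at 20 min (adjusted p = 0.177) and was called lower at 60 min (-0.28, 0.032; 0.05 on the spike-in scale), with a late difference of -0.45 ± 0.11. Hnrnpa2b1, an RNA-binding protein linked to m6A (chromosome 6), was called higher at 20 and 40 min (0.52 and 0.28) and stood at 0.13 at 60 min (adjusted p = 0.298; late -0.39 ± 0.10). Igf2bp1, a reader that stabilises messages, was called lower at 40 and 60 min (-0.28 and -0.24; 0.09 on the spike-in scale at 60 min; late -0.20). Fmr1 was called higher at 20 min alone (0.50; late -0.51 ± 0.14). Fto, the other m6A demethylase (chromosome 8), was called higher at all 3 times by 0.51, 0.37 and 0.53 (late 0.02), and Igf2bp3 (chromosome 6) by 0.67, 0.43 and 0.54 (late -0.13).

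Lists of RNA-processing genes had medians below that of all genes on each of the 3 scales. CLK kinases, L cyclins and SR splicing factors, which control splice site choice, had a median of -0.28 over 24 members, with 15 lower and 0 higher at an unadjusted p under 0.05. Of these 24, 20 were in the highest level band, where the share lower was 32.8%. The median was -0.13 on the spike-in and -0.07 on the quantile scale. Tra2b, a splicing regulator, had levels of 4042 and 3309 in WT and 4539 and 5239 in KO at 20 min, and a mean of 13019 in WT against 13586 and 12145 in KO at 60 min. It stood at 0.24 at 20 min (adjusted p = 0.0595) and was called lower at 60 min (-0.33, 0.0139; late -0.57 ± 0.12). Leaving out either KO library at 60 min ended that call. It also ended when the WT 60 min mean, whose split between libraries was unclear, was given a weight of 1. Srsf1 followed the same course (0.19, -0.15 and -0.29, the last with adjusted p = 0.0329; 0.04 on the spike-in scale; late -0.47). Of the 3 members of highest level, Son and Sfpq were called higher at 20 min (0.21 and 0.31; late -0.35 and -0.37), and Srrm2 had a late difference of -0.02.

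Hosts of small nucleolar RNAs, whose introns carry the guides of ribosomal RNA modification, had a median of -0.30 over 20 members (-0.15 and -0.09 on the other scales), with 12 lower and 0 higher at an unadjusted p under 0.05, against 10.2% lower of all genes. The highest level band, with its 32.8% lower, held 15 of the 20. Gas5 had levels of 1508 and 1418 in WT and 1666 and 2121 in KO at 20 min, and a mean of 2656 in WT against 2641 and 2721 in KO at 60 min (0.19 and -0.30, adjusted p = 0.139 and 0.0242; late -0.49 ± 0.12). Snhg12 was called lower at 40 and 60 min (-0.31 and -0.41; late -0.46). Ncl and Npm1, both abundant nucleolar proteins, and Taf1d, a subunit of the RNA polymerase I factor SL1, had late differences of -0.25, -0.33 and -0.40. Npm1 was called higher in KO at all 3 times (0.62, 0.32 and 0.29), and Taf1d was called lower at 60 min (-0.31, adjusted p = 0.00676; 0.02 on the spike-in scale, where Gas5 was at 0.03).

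Deadenylation and exosome genes, which shorten poly(A) tails and digest RNA, gave -0.25 over 33 members (-0.10 and -0.07 on the other scales; 14 lower, 0 higher at an unadjusted p under 0.05, against 10.2% lower of all genes and 32.8% in the highest level band, which held 25 of the 33). Calls over the 3 times were 7 higher with 1 lower, 3 with 9, and 3 with 6. The lower shares were 3.03%, 27.3% and 18.2%, against 5.58%, 7.5% and 6.75% of all genes, and the higher shares 21.2%, 9.09% and 9.09%, against 10.2%, 5.3% and 6.37%. Without WT 40 min library A the lower count at 40 min was 1, and without WT 60 min library A that at 60 min was 2. With spike-in scaling there was 1 higher call at 20 min and none later, and 4, 1 and 1 of the higher calls were off chromosomes 6 and 8. Cnot1, the scaffold of the CCR4-NOT deadenylase (chromosome 8), was called higher at 20 and 60 min (0.55 and 0.26; late -0.28), Zc3h18 (chromosome 8) at all 3 times (late -0.04), and Dcp2, the decapping enzyme, was called lower at all 3 (-0.46, -0.79 and -0.77; late -0.31). Cnot6l, a deadenylase subunit, was called higher at 20 min (0.38) and stood at -0.16 at 60 min (adjusted p = 0.398; late -0.54).

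Histone-modifying enzymes held 9 higher and 4 lower calls at 20 min, 3 with 16 at the middle point and 2 with 10 at the end, over 48 members with 38 in the highest level band. The lower shares were 8.33%, 33.3% and 20.8%, against 5.58%, 7.5% and 6.75% of all genes, and the higher shares 18.8%, 6.25% and 4.17%, against 10.2%, 5.3% and 6.37%. Spike-in scaling gave 1 higher call at 20 min and none at the later times. Leaving out KO 40 min library B took the lower count at 40 min to 7, and leaving out WT 60 min library A that at 60 min to 6. Without genes of chromosomes 6 and 8 the higher calls were 3, 0 and 0 and the lower calls 4, 16 and 10. Their median late difference was -0.17 (-0.02 and 0.00 on the spike-in and quantile scales), with 19 of 48 lower and 2 higher at an unadjusted p under 0.05, against 32.8% lower and 0.575% higher in that band. Kdm6a, a histone H3 lysine demethylase on the X chromosome, was at 0.16 at 20 min and was called lower at 40 and 60 min (-0.36 and -0.37; late -0.53 ± 0.13). Nsd1, Kdm5b and Jarid2, the members of highest level, had late differences of -0.31, -0.25 and -0.08. Kdm5b was called lower at 40 and 60 min (-0.38 and -0.26; 0.06 on the spike-in scale at 60 min). The 2 with a higher late gain were Kdm6b (0.27) and Kdm4b (0.37), and Kdm4b had been called lower in KO at 20 min (-0.44).

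Zinc-finger genes with Zfp symbols formed the largest list, 377 tested genes, many of them repressors of retroelements through KRAB domains. Their median late difference was -0.23 (-0.08 and -0.14 on the other scales), and 107 were lower and 4 higher at an unadjusted p under 0.05, beside 10.2% lower of all genes, with 106 of the 377 in the highest level band. Calls at 20, 40 and 60 min in turn were 63 higher with 24 lower, 29 with 59 and 30 with 63. As shares these were 16.7% and 6.37%, 7.69% and 15.6%, and 7.96% and 16.7%, against 10.2% and 5.58%, 5.3% and 7.5%, and 6.37% and 6.75% of all genes. With spike-in scaling they came to 16 with 0, 2 with 5 and 17 with 2. All 22939 genes gave 521 with 242, 91 with 225 and 793 with 139 on that scale. So the balance at 60 min turned to mostly higher in this list as it did over all genes. Leaving out single libraries gave 33 to 71 lower (fewest without KO 60 min library B) and 16 to 33 higher (fewest without WT 60 min library A) at 60 min. Without genes of chromosomes 6 and 8 the counts were 34 with 23, 5 with 58 and 8 with 62 of 335. The members of highest level were Zfp42, Zfp638 and Zfp57. Zfp638 (chromosome 6) was called higher at each time (0.64, 0.27 and 0.26; late -0.38), and Zfp57, which guards imprints, was called lower at each time (-0.27, -0.38 and -0.39; late -0.12). Members of this family share sequence, and reads of close copies cannot be assigned with certainty.

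**Figure D4:**
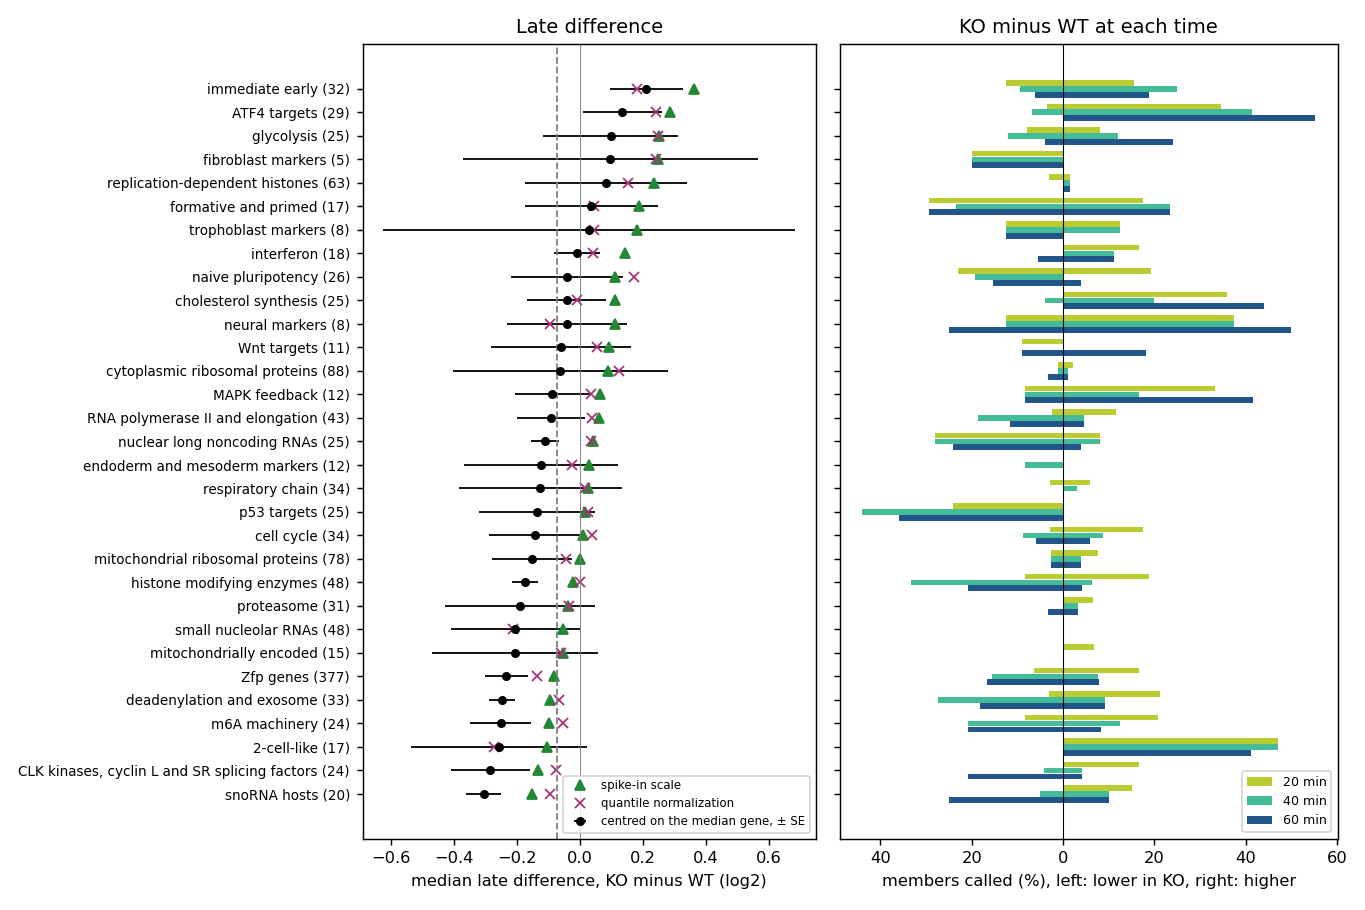
For each gene list (members tested in brackets), the median late difference in log2 units on 3 scales with its standard error over library medians (left; the dashed line is all genes) and the share of members called at 20, 40 and 60 min, lower in KO to the left of 0 and higher to the right (right). ATF4 targets and immediate early genes lie above the median of all genes on each scale, and RNA-processing lists lie below 0 with values nearer to 0 after quantile normalization.

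Among 25 targets of p53, the DNA damage factor, 6, 11 and 9 were called lower in KO at 20, 40 and 60 min (24%, 44% and 36%, against 5.58%, 7.5% and 6.75% of all genes) and 0 higher. Leaving out single libraries gave 1 to 6, 5 to 11 and 6 to 9 lower. On the spike-in scale none was called at any time, where 242, 225 and 139 of all genes were called lower, and the list median at 60 min moved from -0.25 to 0.08. The median late difference was -0.14 (0.02 and 0.03 on the other scales), and 5 members were lower and 0 higher at an unadjusted p under 0.05 (against 10.2% lower of all genes). Mdm2, the ubiquitin ligase of p53, was called lower by -0.24, -0.49 and -0.47 (late -0.23) and Trp53inp1 by -0.28, -0.61 and -0.49 (late -0.20), while Ccng1 was called at no time (late -0.19). Eda2r and Sesn1 were called lower at 40 and 60 min and not at 20 min, with late differences of -0.61 ± 0.13 and -0.60 ± 0.18.

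Of 25 cholesterol synthesis genes 9, 5 and 11 were called higher in KO at the 3 times (36%, 20% and 44%, against 10.2%, 5.3% and 6.37% of all genes) and 0, 1 and 0 lower. Spike-in scaling gave 3, 0 and 4 higher. The 60 min count was 4 without WT 60 min library B, and the 40 min count 2 without WT 40 min library B. The median late difference was -0.04 (0.11 and -0.01 on the other scales). Msmo1 (chromosome 8) was called at each time (1.02, 0.61 and 0.80), and Srebf2, the factor that drives the pathway, at none. Hmgcs1 had a late difference of -0.47 ± 0.15 and Tm7sf2 one of 0.63 ± 0.22, so members went both ways.

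Several pluripotency and lineage genes differed between the lines at 20 min and by a like amount at 60 min. Over 26 naive pluripotency genes the median late difference was -0.04 (0.11 and 0.17 on the other scales), with 5 higher and 6 lower calls at 20 min, then 0 with 5 and 1 with 4. The lower shares were 23.1%, 19.2% and 15.4%, against 5.58%, 7.5% and 6.75% of all genes, and the higher shares 19.2%, 0% and 3.85%, against 10.2%, 5.3% and 6.37%. No member was called at any time on the spike-in scale. Without WT 20 min library B the higher count at 20 min was 1, and the lower counts came to as few as 3, 2 and 2 when WT 20 min library A, WT 40 min library A or KO 60 min library A was left out. The median late difference ran from -0.15 without WT 20 min library A to 0.01 without KO 60 min library A. Tfcp2l1 was called lower at each time (-0.44, -0.70 and -0.65; late -0.22) and Sox2 likewise (-0.39, -0.33 and -0.42; late -0.03), Zfp42 (chromosome 8) was called higher at 20 min (0.37; late -0.21), and Nanog (chromosome 6) was called at no time (late -0.09). Nr5a2 was called higher at 20 min (0.29) and stood at -0.19 at 60 min (adjusted p = 0.19; late -0.48 ± 0.13). Of 17 formative and primed genes the median was 0.04 (0.19 and 0.04 on the other scales, -0.11 without WT 60 min library B). Lefty2, an inhibitor of Nodal, had levels of 401.8 and 352.4 in WT and 1156 and 1252 in KO at 20 min, and 725.2 and 888.8 against 2809 and 2669 at 60 min. It was called higher by 1.501, 1.45 and 1.44, and its late difference was -0.06 ± 0.14. Dnmt3b, a de novo DNA methyltransferase, was called lower by -1.004, -1.15 and -1.19 (late -0.19), and Dnmt3a was called higher at 40 and 60 min (0.46 and 0.45; late 0.13). Etv5 was called at no time (late -0.15).

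Of 8 neural markers, 3, 3 and 4 were called higher in KO at 20, 40 and 60 min and 1, 1 and 2 lower. The higher shares were 37.5%, 37.5% and 50%, against 10.2%, 5.3% and 6.37% of all genes. The lower shares were 12.5%, 12.5% and 25%, against 5.58%, 7.5% and 6.75%. Their median late difference was -0.04 (0.11 and -0.09 on the other scales). Spike-in scaling gave 3 with 0, 2 with 1 and 3 with 1. All 22939 genes gave 521 with 242, 91 with 225 and 793 with 139 on that scale. Fewer markers were called higher at 60 min without WT 60 min library B. Pax6 had levels of 35.1 and 43.0 in WT and 167.0 and 139.7 in KO at 20 min, and of 91.7 and 131.7 against 477.4 and 436.8 at 60 min (1.78, 1.87 and 1.72 at the 3 times; late -0.06). Nes was called higher by 0.82, 0.99 and 0.88 (late 0.07) and Tubb3 (chromosome 8) by 0.96, 0.80 and 0.59 (late -0.37). The summed level of the neural markers in KO is given above, and its part in the differences of other genes was not tested. Of 17 tested genes that mark 2-cell-like cells, which express early embryonic transcripts, 8, 8 and 7 were called higher in KO (47.1%, 47.1% and 41.2%, against 10.2%, 5.3% and 6.37% of all genes) and 0 lower. The counts were 8, 0 and 5 on the spike-in scale. The median late difference was -0.26 (-0.10 and -0.27 on the other scales) with 0 members under an unadjusted p of 0.05, and it ran from -0.37 without KO 20 min library B to -0.10 without KO 20 min library A. Zscan4e, Zscan4a and Zscan4d, near-identical copies, had late differences of -0.21, -0.26 and -0.33, and the 60 min count was 3 without WT 60 min library B.

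RNA polymerase II and elongation genes had a median of -0.09 over 43 members (0.06 and 0.04 on the other scales), with Supt16 at -0.26, Polr2a at -0.07 and Cdk12 at -0.29, and Cdk13, a kinase of the polymerase tail, at -0.53 ± 0.13. Cell cycle genes gave -0.14 over 34 members (0.01 and 0.04 on the other scales), with Top2a at -0.40, Mki67 at -0.28 and Mcm2 (chromosome 6) at -0.13, and Bub1 at -0.49 ± 0.14. Top2a, Mki67 and Bub1 were called higher in KO at 20 min (0.28, 0.29 and 0.41) and at neither later time. Cytoplasmic ribosomal protein genes, whose spliced copies are scattered over the genome as pseudogenes, gave -0.06 over 88 members (0.09 and 0.12 on the other scales, -0.24 without WT 20 min library A and 0.13 without WT 20 min library B), with Rpl4 at -0.02, Rpl5 at -0.15 and Rps24 at -0.15. Replication-dependent histones gave 0.08 over 63 (0.24 and 0.15 on the other scales), with Hist1h1d at 0.10, Hist1h1c at 0.08 and Hist1h1a at 0.27, and glycolysis genes 0.10 over 25 (0.25 and 0.25 on the other scales, -0.04 without WT 20 min library A), with Slc2a3 (chromosome 6) at -0.06, Pkm at -0.08 and Gapdh (chromosome 6) at 0.03. Nuclear long noncoding RNAs gave -0.11 over 25 (0.04 and 0.04 on the other scales), with 7 lower and 3 higher at an unadjusted p under 0.05 (against 10.2% and 2.95% of all genes). Malat1, Kcnq1ot1 and Lncenc1 were at -0.19, -0.27 and -0.11, Platr3 was called lower at each time (-0.79, -1.02 and -1.29; late -0.50 ± 0.18), and Mirg, of the imprinted Dlk1-Dio3 region, was called lower at 20 min (-0.49) and stood at -0.11 at 60 min (late 0.38 ± 0.14). The remaining 11 lists, with 272 members, had medians between -0.21 and 0.10, with 1 member higher and 16 lower at an unadjusted p under 0.05, and their 33 members of highest level lay between -0.51 and 0.27.

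Repeats were described by family, with reads summed over the loci of each family and centred on the same median gene. Of 60 families 2 were called in the late difference (3.33%), both lower in KO, and 55 of the 60 lay below 0 with a median of -0.16. That median rested on the centring: on the spike-in scale it was -0.00321. At an unadjusted p under 0.05 there were 19 families, all lower. Loci that the annotation calls Unknown had levels of 82867 and 72918 in WT and 83961 and 96359 in KO at 20 min, 180053 and 264783 against 164867 and 186108 at 40 min, and 240969 and 320884 against 300940 and 263957 at 60 min. KO minus WT was 0.04 at 20 min and -0.31 at both 40 and 60 min (adjusted p = 0.00147 at each), and the late difference was -0.34 ± 0.07 (0.0152). DNA/TcMar-Tc1, copies of an old DNA transposon, had levels of 201.9 and 186.4 against 249.9 and 329.9 at 20 min and 484.1 and 594.5 against 645.7 and 551.8 at 60 min. Its late difference was -0.56 ± 0.14 (adjusted p = 0.0334), and it had been called higher in KO at 20 min (0.39, 0.0258).

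These 2 calls depended on single libraries and on the scale. Unknown was not called without WT 60 min library A (adjusted p = 0.141) or KO 60 min library B (0.166), and TcMar-Tc1 without WT 20 min library A (0.0769), WT 20 min library B (0.137), WT 40 min library A (0.0663), WT 40 min library B (0.0671), WT 60 min library A (0.240), KO 20 min library B (0.113) or KO 60 min library B (0.194). Without KO 20 min library A, 34 families were called lower, and without KO 60 min library A, 7. On the spike-in scale no family was called (0 under an unadjusted p of 0.05, smallest adjusted p 0.996). Families with many reads lay closer to 0 than the 2 called, among them LINE/L1 at -0.24 ± 0.10 (adjusted p = 0.140), LTR/ERVK, which holds the IAP and ETn elements, at -0.21 ± 0.06 (0.0956), SINE/Alu at -0.13 ± 0.05 (0.125) and SINE/B2 at -0.12 ± 0.05 (0.147). LINE/L1 and LTR/ERVK, which were not called, lay farther from 0 than the median over families, -0.16. Simple_repeat (-0.14 ± 0.06), LTR/ERVL-MaLR (-0.13 ± 0.06) and SINE/B4 (-0.12 ± 0.05), each with more reads than LTR/ERVK, were not called either. At 20 min 20 families were called higher in KO (33.3%) and 0 lower, at 40 min 2 lower (3.33%) and at 60 min 1 lower (1.67%). Without KO 20 min library B, or without WT 60 min library A, the count at 20 min was 0.

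**Figure D5:**
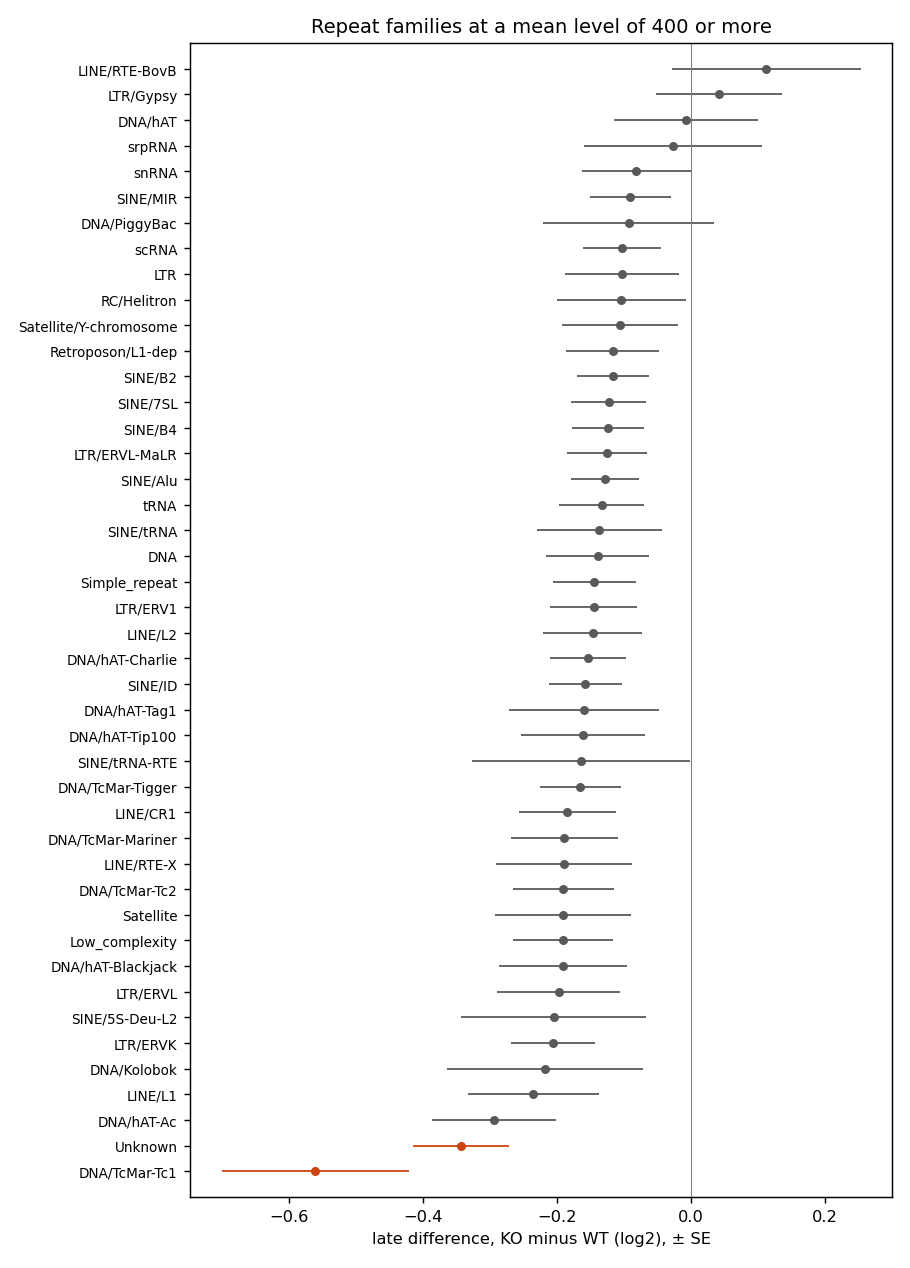
Late difference of repeat families with a mean level of 400 or more (log2 units on the horizontal axis, 1 family a line, bars are standard errors, called families coloured). All but LINE/RTE-BovB and LTR/Gypsy lie below 0, and Unknown and DNA/TcMar-Tc1, the 2 called, lie at -0.34 and -0.56.

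At single loci the late difference was called nowhere: 0 of 330512 loci (0%), with 32875 under an unadjusted limma p of 0.05 and a smallest adjusted p of 0.454. The tested loci had a median of -0.37 and a median standard error of 0.62, which is larger than the late difference of every family except DNA/TcMar-Pogo (-1.18 ± 1.01) and DNA/MULE-MuDR (-0.63 ± 0.33), neither of them called. Centred on the loci tested, which removes that offset, 0 loci were called and 19184 had an unadjusted p under 0.05. Without KO 20 min library A 18672 loci were called (2782 higher, 15890 lower), without WT 20 min library A 18, and without WT 20 min library B 1. KO and WT differed at 6767 loci at 20 min (2.05%; 5416 or 1.64% higher, 1351 or 0.409% lower), 871 at 40 min (0.264%; 227 or 0.0687% higher, 644 or 0.195% lower) and 1207 at 60 min (0.365%; 107 or 0.0324% higher, 1100 or 0.333% lower). Centred on the loci tested, the 20 min split turned to 1142 higher and 2453 lower.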

How the data were processed

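EU-labelled RNA was sequenced from WT and KO cells at 20, 40 and 60 min, 2 libraries a group. The deposited tables give log2 ratios of each time to 10 min, 1 column per genotype and time with both libraries pooled, made by the authors from spike-in scaled reads. Per the submitters' processing notes the tools were HISAT2, SAMtools and Picard, with no versions given, and the build GRCm39. Whether mates were counted singly is not given in the sources used here. From these log2 values the whole reads of each library were recovered, for every row with a value. At 60 min in WT, 7517 gene rows allowed several splits between the libraries, of which 4688 had a clear choice, which may understate the spread, and 2829 entered as 1 value of weight 2. For these 2829, leaving out a WT 60 min library kept the value and set its weight to 1. Counts without a WT 60 min library rest in part on that lower weight. Levels are reads times 11714 over spike-in reads. log2(level + 1) was centred per library on the median of 31118 genes that are nonzero in all 9 columns. Genes needed a mean level of 10 and reads in 6 of 12 libraries. Tests used limma 3.58.1 (R 4.3.3) with a variance trend and Benjamini-Hochberg adjustment at 0.05, and were tested on simulated data. Members and lists were chosen with earlier results of these data known. Named genes were the 12 highest and 12 lowest late differences at a mean level of 50 or more among genes with a proper name, the 3 members of highest level and all members that pass in each list, and Alkbh5. Added after values were seen were the 12 smallest p among genes of that level with a proper name, and list members with an unadjusted p under 0.05. Gene names are from GENCODE M21 (51948 of 56941 IDs) and promoters from RefSeq. Some genes that meet this rule are not reported here.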

Additional observations from a re-analysis of the deposited data

Results flagged for a closer look

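2 repeat families had a KO gain from 20 to 60 min that differed from the WT gain by a test of the difference itself. For loci annotated as Unknown the late difference was -0.34, and for DNA/TcMar-Tc1 it was -0.56. Both calls were lost on the spike-in scale, where the values were -0.19 and -0.41.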

How the results depend on the processing

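No paired analysis was possible because each deposited column pools both libraries and carries no replicate numbers, so the planned fit with a replicate block was not run. No setting other than leaving out a library called a gene in the late difference: quantile normalization, a pseudocount of 5, no filter, a mean level of 50, unique splits only, all 24 libraries, a slope, voom, the spike-in scale and leaving out chromosomes 6 and 8 (chosen after seeing the data) each gave 0. Without WT 20 min library A or KO 20 min library A it gave 308 or 76, and the step from 20 to 40 min 383 or 123. Leaving out single libraries gave 2150 to 3908 calls at 20 min, 1400 to 3366 at 40 min and 1459 to 3439 at 60 min. For families it gave 0 to 34 late, and 0 to 36, 0 to 6 and 0 to 4 at the 3 times, and for loci 0 to 18672 late. It moved the totals to -0.219 to 0.193 for genes and -0.225 to 0.198 for repeats. With the median row in place of the total these were 0.152 and 0.386. On the spike-in scale 763, 316 and 932 genes were called at 20, 40 and 60 min, 0 families late and at each time, and 4 loci late. A pseudocount of 5 gave 2 loci late and 1 family at 40 min. Centred on the loci tested (chosen after seeing the data), 3595 loci were called at 20 min and 1410 at 40 min. Of 169 named calls at single times, 114 were lost on the spike-in scale, and 6 changed sign at 60 min: Igf2bp1 0.0861, Srsf1 0.0376, Taf1d 0.0203, Ythdc1 0.0465, Kdm5b 0.0616 and Gas5 0.0286. A sign change is counted where either value is called. Quantile normalization lost 17 and leaving out a library at least once 71. Median late differences on the spike-in scale were 0.0789 for all genes, -0.0996 for m6A machinery, 0.363 for immediate early genes, 0.287 for ATF4 targets, 0.111 for cholesterol synthesis, 0.0604 for RNA polymerase II, 0.00922 for cell cycle, -0.132 for splicing factors, -0.0954 for deadenylation, 0.0408 for nuclear noncoding RNAs, -0.153 for snoRNA hosts, -0.0216 for histone modifiers and -0.0811 for Zfp genes. After quantile normalization they were 0.000348 for all genes, -0.0541 for m6A machinery, 0.173 for naive pluripotency, 0.0392 for RNA polymerase II, 0.0372 for cell cycle, -0.0748 for splicing factors, -0.0667 for deadenylation, 0.0359 for nuclear noncoding RNAs, -0.0936 for snoRNA hosts, 0.000203 for histone modifiers and -0.135 for Zfp genes. Leaving out single libraries moved the median to -0.110 to -0.0300 for all genes, 0.0549 to 0.284 for immediate early genes, 0.00651 to 0.224 for ATF4 targets, -0.168 to 0.0329 for cholesterol synthesis, -0.242 to -0.0383 for nuclear noncoding RNAs and -0.238 to 0.0215 for neural markers. The cause was not tested.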
